A study of Mus musculus with 35 samples.

Results

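Gene expression was compared between mouse blood progenitor cells expressing G-NHA9-21FGAA and cells expressing G-NHA9Midi-21FGAA, which the sample labels call G-NHX9-21FGAA and G-NHX9-midi-21FGAA. The comparison was defined by the labels and held 5 RNA-seq libraries for each construct, 10 of the 35 libraries of the series. All cells were bone marrow progenitors depleted of cells with mature lineage markers (lin- HSPCs), and the methods give C57Bl/6 mice of both sexes. The mice were 8 weeks old per the labels for all 10 libraries compared. They were transduced with a lentivirus, sorted by mCherry and mEGFP fluorescence (mCherry alone for the empty vector) and plated for 1 week in methylcellulose with myeloid and erythroid growth factors and 10 ng/mL GM-CSF. An empty vector without a fusion protein, and the unmutated pair G-NHA9 and G-NHA9Midi, were cultured in the same way with 5 libraries each and are given here for reference. Among these the labels give 9 and 10 weeks for empty vector replicates 4 and 5, 11 weeks for G-NHA9 replicate 1 and 8 weeks for the others. The labels do not say that libraries of a condition came from separate animals, and the methods speak of transduction in triplicate where 5 libraries are numbered, so some of the 5 may not be separate transductions and the p-values measure the spread between these libraries.

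Both constructs carry an mEGFP tag, a part of the nucleoporin NUP98 and the homeodomain end of HOXA9, and in both every one of the 21 FG motifs of the C-terminal region of the NUP98 part was changed to AA. They differ in the N-terminal stretch of NUP98, which is absent from the Midi form. In the construct sequences this stretch was 225 residues long and held 17 FG motifs, all of them intact in G-NHA9-21FGAA, so that G-NHA9-21FGAA kept 17 FG motifs and G-NHA9Midi-21FGAA had 0. The stretch also contains the GLEBS domain, the part of NUP98 that binds RAE1, so that the number of FG motifs and the presence of this domain cannot be told apart in this comparison. The constructs were added to cells that kept their own Nup98 and Hoxa9 genes.

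NUP98 is a component of the nuclear pore whose phenylalanine-glycine (FG) repeats make weak contacts with one another and with transport receptors and chromatin regulators. In leukemia, chromosome translocations join these repeats to DNA-binding proteins such as HOXA9, and the fusion proteins gather in nuclear puncta and raise transcription of Hox cluster genes and their cofactor Meis1. In normal bone marrow the Hox genes of the A cluster and Meis1 are high in stem cells and fall as cells mature, and the primary granule enzymes mark the promyelocyte stage of the granulocytic lineage.

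Total counts were between 37911026 and 66910028 in the G-NHA9-21FGAA libraries and between 42388789 and 75810659 in the G-NHA9Midi-21FGAA libraries. Values below are CPM, counts relative to the size of the library after TMM scaling, and 3 counts in a library corresponded to 0.0382 to 0.0722 CPM over the 10 libraries. On the first principal component of the 500 most variable genes, which held 36.0% of their variance, replicates 4 and 5 of G-NHA9-21FGAA (23.0 and 23.3) and replicate 5 of G-NHA9Midi-21FGAA (17.9) stood apart from the other 7 libraries, which were between -21.2 and -1.46. The second component, with 30.7% of the variance, held all 5 G-NHA9-21FGAA libraries at 4.74 to 21.9 and all 5 G-NHA9Midi-21FGAA libraries at -19.0 to -9.40. No 2 libraries of the same construct agreed within sampling noise. The counts were taken on mouse genes and gave no measure of the amount of construct. Reads on the mouse Nup98 gene were at 164 ± 24.4 CPM (mean ± SD, n = 5) with G-NHA9-21FGAA and 137 ± 21.2 with G-NHA9Midi-21FGAA, a log2 difference of 0.26 ± 0.12 (± SE, adjusted p = 0.294, and 0.0467 under the replicate block). Against empty vector the log2 differences were 0.34 ± 0.12 with G-NHA9-21FGAA (adjusted p = 0.0314) and 0.083 ± 0.12 with G-NHA9Midi-21FGAA (adjusted p = 0.686). Whether some of these reads came from the NUP98 part of the constructs was not tested.

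Of 17166 genes tested, 517 (3.01%) differed at an adjusted p under 0.05. Among these, 341 (1.99%) were higher and 176 (1.03%) lower in cells with G-NHA9-21FGAA, the construct that keeps the N-terminal FG motifs. Genes that rose did so by more than genes that fell. The median log2 difference was 1.14 for the genes that rose and -0.64 for those that fell, against 0.0087 for all genes tested, and of the 218 genes at least 1 log2 unit apart 196 were higher. In 815 genes (4.75%), 434 higher (2.53%) and 381 lower (2.22%), no library of a construct overlapped the range of the other, and 224 of the higher and 106 of the lower genes that changed were among them.

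**Figure D1:**
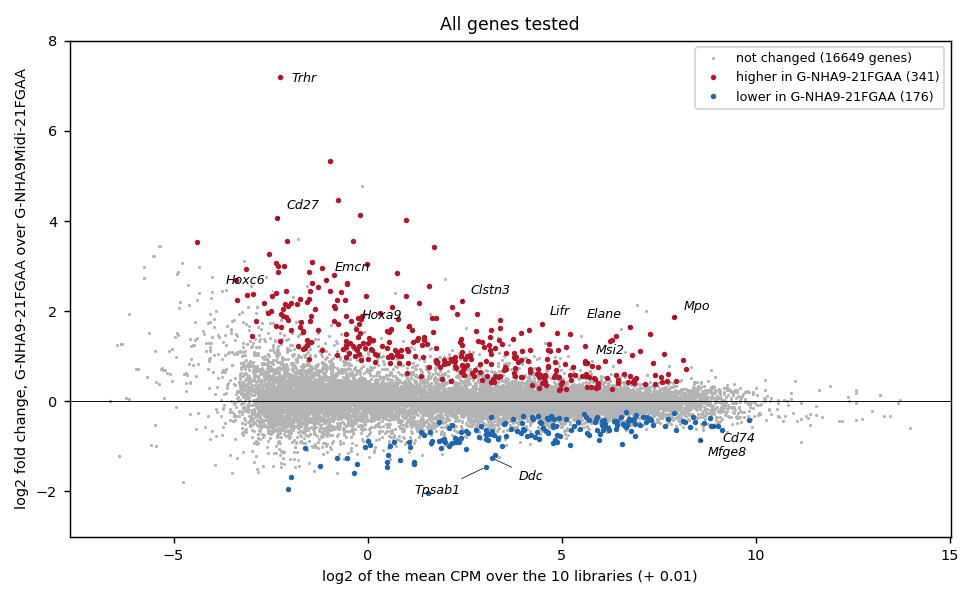
Mean level over the 10 libraries (log2 CPM, horizontal) against the log2 fold change of G-NHA9-21FGAA over G-NHA9Midi-21FGAA (vertical) for the 17166 genes tested, 1 point per gene. The 341 red genes (higher with G-NHA9-21FGAA) reach further from 0 than the 176 blue genes (lower).

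Libraries of the same number deviated together from their group means. With the number as a block 1033 genes (6.02%) changed, 605 higher (3.52%) and 428 lower (2.49%), including all 517, with the same sign. The count fell to 296 and 305 without G-NHA9-21FGAA replicates 3 and 5, and to 248, 318 and 210 without G-NHA9Midi-21FGAA replicates 1, 3 and 4. Replicates 1 to 3 of every condition alone gave 328 genes (1.91%), 244 higher and 84 lower, and DESeq2 called 776 (4.52%).

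Beside the granule genes described next, the largest rises of well-expressed genes included membrane and secreted proteins outside the gene lists used here. Clstn3, a calcium-binding cell adhesion protein studied at synapses, was at 5.04, 8.69, 5.26, 10.1 and 14.9 CPM in replicates 1 to 5 of G-NHA9-21FGAA and at 1.61, 1.40, 1.43, 1.97 and 2.99 in replicates 1 to 5 of G-NHA9Midi-21FGAA. The groups did not overlap, and Clstn3 was 4.64-fold higher (log2 2.22 ± 0.28, adjusted p = 7.33e-06). Abca4, a lipid transporter known from photoreceptors, was at 11.2 ± 2.07 against 2.90 ± 1.10 CPM (log2 1.94 ± 0.31, adjusted p = 0.000261). Lifr, the receptor subunit for leukemia inhibitory factor, was at 29.8, 33.1, 30.1, 42 and 36.9 CPM against 5.70, 9.55, 6.38, 11.6 and 19.2. Every G-NHA9-21FGAA library was above every G-NHA9Midi-21FGAA library for Lifr, by 3.27-fold on average (log2 1.71 ± 0.25, adjusted p = 6.12e-05). Gja1, which encodes the gap junction protein connexin 43, rose from 3.46 ± 0.878 to 10.3 ± 1.90 CPM (log2 1.57 ± 0.23, adjusted p = 7.91e-05). Serpine2, a secreted inhibitor of serine proteases, rose from 19.6 ± 6.66 to 55 ± 11.2 CPM (log2 1.49 ± 0.26, adjusted p = 0.000945), and Gcsam, a signalling adaptor of germinal center B cells, from 4.69 ± 2.18 to 16.4 ± 5.01 CPM (log2 1.80 ± 0.37, adjusted p = 0.00483). For all of these genes the groups did not overlap, which the rule that named them required. The call for each was kept whichever single library was left out. Gucy1b3, a subunit of soluble guanylate cyclase, rose from 15.2 ± 6.41 to 43.2 ± 16.5 CPM (log2 1.51 ± 0.40, adjusted p = 0.0314), a call lost without G-NHA9-21FGAA replicates 2 and 3 or G-NHA9Midi-21FGAA replicates 1, 3 and 4 and with replicates 1 to 3 alone (adjusted p = 0.0723).

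Most markers of the primary, or azurophil, granules of neutrophil precursors rose with G-NHA9-21FGAA. Of the 8 markers of these granules tested, 5 rose, where 1.99% of all genes tested did, and 0 fell. All 8 had a positive difference, with a median log2 difference of 1.40. The genomic sequence before the RefSeq start is shown for the 5 that rose, since these genes moved together. It was cut before any GENCODE M21 exon that it overlapped. For Prtn3 the printed bases lie within the GENCODE gene, which spans chr10:79874476-79883174. The bases are given on the strand of the gene, in GRCm38.p6 from RefSeq, at chr11:87793534-87793580 (Mpo), chr10:79886137-79886246 (Elane), chr10:79879504-79879613 (Prtn3), chr14:56102575-56102684 (Ctsg) and chr19:11640852-11640961 (Ms4a3), with Ctsg and Ms4a3 on the minus strand and the others on the plus strand. They end 203, 65 and 53 bases before the RefSeq start for Mpo, Elane and Prtn3 and at that start for Ctsg and Ms4a3. Capitals mark exact matches, on either strand, to core motifs of 4 factors of the myeloid lineage.
Mpo: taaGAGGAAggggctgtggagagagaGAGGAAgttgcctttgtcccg
Elane: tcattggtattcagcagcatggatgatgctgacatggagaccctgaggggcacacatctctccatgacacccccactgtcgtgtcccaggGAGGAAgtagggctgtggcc
Prtn3: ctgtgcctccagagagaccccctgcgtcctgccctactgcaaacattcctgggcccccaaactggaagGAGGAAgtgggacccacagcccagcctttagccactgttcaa
Ctsg: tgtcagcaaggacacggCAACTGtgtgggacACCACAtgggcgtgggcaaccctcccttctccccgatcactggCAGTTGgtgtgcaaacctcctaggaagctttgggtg
Ms4a3: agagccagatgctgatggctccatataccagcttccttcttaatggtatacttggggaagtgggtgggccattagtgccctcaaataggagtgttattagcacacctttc
The 6 letters GAGGAA, a core of sites for the factor PU.1, stood in the 250 bases before the RefSeq start in 4 of the 5 genes, at 2 places for Mpo and 1 each for Elane, Prtn3 and Ctsg, where it lay further upstream than the printed bases. They were found in 23.3% of the 32851 mouse promoters searched in the same way. The MYB core CAACTG (11.1% of promoters) was matched at 2 places and the RUNX core TGTGGT (14.0%) at 1 place, both in Ctsg alone of the 5. The C/EBP motif TTGCNNAA (9.56%) was matched in 0 of the 5. These matches describe the letters and say nothing of binding.

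Mpo, the myeloperoxidase that makes hypochlorous acid in the granule, lies at chr11:87793581-87804413 (GRCm38). It was at 352, 346, 407, 352 and 409 CPM in replicates 1 to 5 of G-NHA9-21FGAA and at 98, 132, 159.7, 62.6 and 61.3 in those of G-NHA9Midi-21FGAA. The lowest library with the N-terminal FG motifs was above the highest without them, and Mpo was 3.63-fold higher (log2 1.86 ± 0.38, adjusted p = 0.00454). Ctsg, the granule protease cathepsin G, was at 219, 255, 256, 209 and 199 CPM against 59.2, 105, 119.6, 76 and 45.6. The groups did not overlap (log2 1.49 ± 0.29, adjusted p = 0.00274). Elane, neutrophil elastase, was at 138, 193, 157, 168 and 157 CPM against 44.9, 70.7, 67.1, 43.3 and 34.7. Here replicate 2 of G-NHA9-21FGAA was the highest library, and the groups did not overlap (log2 1.64 ± 0.43, adjusted p = 0.0292). Prtn3, proteinase 3, stood at 123 ± 29.3 against 45.1 ± 18 CPM (log2 1.45 ± 0.38, adjusted p = 0.0288), also without overlap. Ms4a3, a membrane protein of granulocyte and monocyte precursors, was the remaining member that rose and was named after its values were seen, at 108 ± 7.21 against 42.5 ± 13 CPM (log2 1.35 ± 0.33, adjusted p = 0.0175). The other markers, Hp (75.6 ± 33 against 59.6 ± 16.3 CPM), Fcnb (21.3 ± 3.99 against 18.1 ± 6.53) and Serpinb1a (418 ± 66.3 against 399 ± 70.0), did not pass the test. Plppr3, which also rose (5.23 ± 2.25 to 16 ± 4.20 CPM, log2 1.62 ± 0.31, adjusted p = 0.00222), lies over Prtn3 on the opposite strand, and since the strand setting of the counting is not given, reads of the 2 genes cannot be told apart here. The same holds for Mpo, Hoxa3, Meis1, Tgif2, Myb, Gfi1, F13a1, Idi1, Shmt2, Pfkm, Sulf2, Clmp and Pdgfc, each of which overlaps another annotated gene on the opposite strand, and Hoxa2, Hoxa3, Meis1 and Pfkm also overlap one on their own strand.

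**Figure D2:**
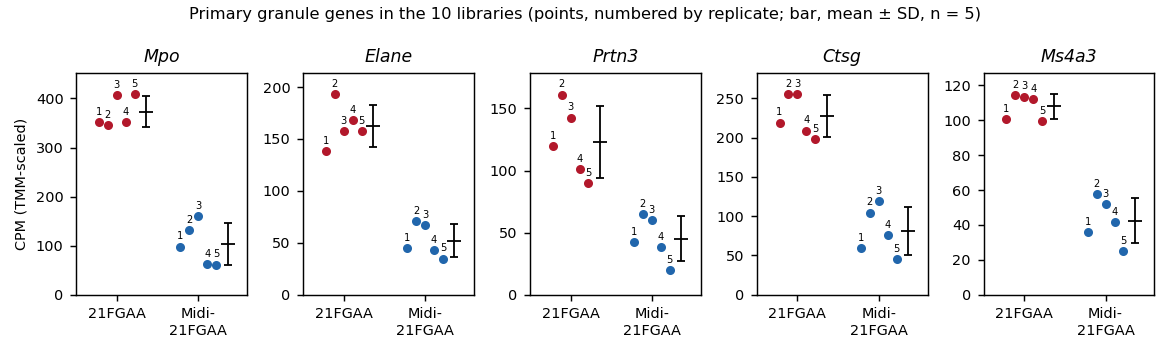
CPM of the 5 primary granule genes that rose, 1 point per library numbered by replicate, with the mean and SD of 5 libraries beside each group. For every gene the 5 G-NHA9-21FGAA libraries (red) lie above the 5 G-NHA9Midi-21FGAA libraries (blue).

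The summed level of the 8 granule markers was 1367 to 1606 CPM with G-NHA9-21FGAA and 651 to 924 CPM with G-NHA9Midi-21FGAA. In bulk RNA, more cells at the promyelocyte stage and more of these transcripts in each cell cannot be told apart. Over the same libraries the 24 tested markers of monocytes and macrophages summed to 14906 to 23439.5 CPM against 24005 to 29418 CPM, lower in every G-NHA9-21FGAA library. Most of this sum was Lyz2, given below, which did not pass the test, so the sum does not stand for the other markers. The part of these cells in the result was not tested. The call for Elane was lost without G-NHA9-21FGAA replicates 2, 3 and 5 or G-NHA9Midi-21FGAA replicates 1, 4 and 5, that for Prtn3 without G-NHA9-21FGAA replicates 1, 2 and 3 or G-NHA9Midi-21FGAA replicates 1, 4 and 5, and that for Ms4a3 without G-NHA9Midi-21FGAA replicates 1 and 4, with adjusted p up to 0.0971, 0.0967 and 0.0613. Mpo and Ctsg passed in all of these fits, and with replicates 1 to 3 alone Ctsg remained of the 5 (adjusted p = 0.0162, against 0.0846 for Mpo, 0.127 for Prtn3, 0.141 for Ms4a3 and 0.211 for Elane).

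Some of the Hox cluster genes, which encode the homeodomain factors that NUP98 fusions are known to switch on, rose with G-NHA9-21FGAA but remained at low levels. Of 39 Hox genes, 21 passed the filter on low counts across the series. Of these 5 rose, where 1.99% of all genes tested did, and 0 fell. A positive difference was found in 19, and the median log2 difference was 1.12 (0.72 with genes at 0 or near it set at the limit that 3 counts allow). Hoxa9, at chr6:52223100-52231089 (GRCm38), was at 4.91, 3.83, 5.15, 1.00 and 1.53 CPM in replicates 1 to 5 of G-NHA9-21FGAA and at 1.23, 2.18, 1.19, 0.730 and 0.242 in those of G-NHA9Midi-21FGAA. Replicates 4 and 5 of G-NHA9-21FGAA lay within the range of the other group, and Hoxa9 was 2.98-fold higher (log2 1.57 ± 0.36, adjusted p = 0.0107). The mean Hoxa9 level was 0.975 ± 0.221 CPM in cells with empty vector and 96.6 ± 14.4 CPM in cells with G-NHA9. The constructs carry the homeodomain end of HOXA9. Whether some of the Hoxa9 reads, here and below, came from the constructs was not tested. Hoxa3 rose from 0.385 ± 0.146 to 1.21 ± 0.462 CPM (log2 1.61 ± 0.37, adjusted p = 0.0124). Hoxa5, named after its values were seen as the remaining member that rose, went from 0.572 ± 0.146 to 1.41 ± 0.403 CPM (log2 1.29 ± 0.27, adjusted p = 0.00632). For Hoxa3 and Hoxa5, too, the groups overlapped.

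The called Hox genes nearest to the counting limit were Hoxa2, at 0.638, 0.269, 0.274, 0.197 and 0.239 CPM against 0.0962, 0.0910, 0.137, 0.0592 and 0.0382 (log2 1.94 ± 0.45, adjusted p = 0.0124), and Hoxc6, at 0.319, 0.145, 0.391, 0.239 and 0.501 CPM against 0, 0.0364, 0.0587, 0.0789 and 0.0892 (log2 2.41 ± 0.57, adjusted p = 0.0146). Both were above the other group in every G-NHA9-21FGAA library, and replicate 1 was far above the rest for Hoxa2. The Hoxa2 call was lost without that library (adjusted p = 0.0660) and with replicates 1 to 3 alone (adjusted p = 0.101). Hoxa7, at 2.99 ± 1.72 against 1.31 ± 0.594 CPM, did not pass (adjusted p = 0.0614) unless the replicate number was a block (adjusted p = 0.0288), and Hoxb4, a B cluster gene known for expansion of stem cells, was at 3.02 ± 0.375 against 2.29 ± 0.539 CPM (adjusted p = 0.272). A fit on the 10 libraries alone, with 236 genes called (1.49%), called 2 Hox genes and did not call Hoxa9 (adjusted p = 0.191).

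Among the TALE homeobox proteins, the DNA-binding cofactors of HOX proteins, 2 of the 11 tested rose and 0 fell, with a median log2 difference of 0.092. Over all genes tested 1.99% rose. Meis1, the cofactor that works with HOXA9 in leukemia, was at 30.0, 29, 27.4, 31.9 and 40.0 CPM in replicates 1 to 5 of G-NHA9-21FGAA and at 13.9, 18.8, 15.8, 16.8 and 26.9 in those of G-NHA9Midi-21FGAA. The groups did not overlap (log2 0.78 ± 0.18, adjusted p = 0.0107), and the mean was 13.7 ± 2.61 CPM with empty vector. Tgif2, a repressor of this class, rose from 0.844 ± 0.387 to 1.95 ± 0.984 CPM (log2 1.18 ± 0.28, adjusted p = 0.0173), a call lost without G-NHA9-21FGAA replicate 5 or G-NHA9Midi-21FGAA replicates 1 and 4. Pbx3 differed little, at 10.3 ± 1.91 against 9.55 ± 1.91 CPM (log2 0.11 ± 0.14, adjusted p = 0.806). Under the replicate block Meis3 was lower (adjusted p = 0.0250).

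Regulators of stem cells and leukemia rose in part. Of 29 tested, 5 rose, where 1.99% of all genes tested did, and 0 fell. A positive difference was found in 24, with a median log2 difference of 0.35. Myb, a transcription factor that progenitors need to proliferate, was at 82.1, 70.9, 79, 95.4 and 123 CPM against 32.3, 54, 53.5, 41.1 and 60.3. All 5 libraries with the N-terminal FG motifs were above the others (log2 0.90 ± 0.17, adjusted p = 0.00222). Msi2, an RNA-binding protein that supports stem cell self-renewal, was at 62.6, 61.3, 65.3, 56.3 and 75.6 CPM against 29.3, 39.4, 36.8, 29 and 43.3. It was named after its values were seen and also rose without overlap (log2 0.85 ± 0.12, adjusted p = 6.15e-05). Gfi1, a repressor required for neutrophil development, rose 2.42-fold, from 14.9 ± 3.48 to 36 ± 8.18 CPM (log2 1.28 ± 0.25, adjusted p = 0.00312). Hlf, a factor of stem cell quiescence, rose from 0.652 ± 0.152 to 1.46 ± 0.297 CPM (log2 1.16 ± 0.27, adjusted p = 0.0121), and Lin28b, a fetal regulator of let-7 microRNAs, from 0.0817 ± 0.0595 to 0.405 ± 0.199 CPM (log2 2.18 ± 0.54, adjusted p = 0.0209), again without overlap. Runx1 (170.5 ± 49.8 against 164 ± 54.9 CPM) and Bmi1 (28.6 ± 2.36 against 33.1 ± 3.03) did not pass the test. Under the replicate block 10 of the 29 were higher, adding Erg, Fli1, Lyl1, Mycn and Sox4, where 3.52% of all genes tested were higher. The call for Lin28b was lost without G-NHA9-21FGAA replicates 3 and 5 or G-NHA9Midi-21FGAA replicates 1 and 4. With replicates 1 to 3 alone 4 of the 29 were called, where 1.91% of all genes tested were, with adjusted p values of 0.0585 for Myb and 0.0997 for Lin28b.

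**Figure D3:**
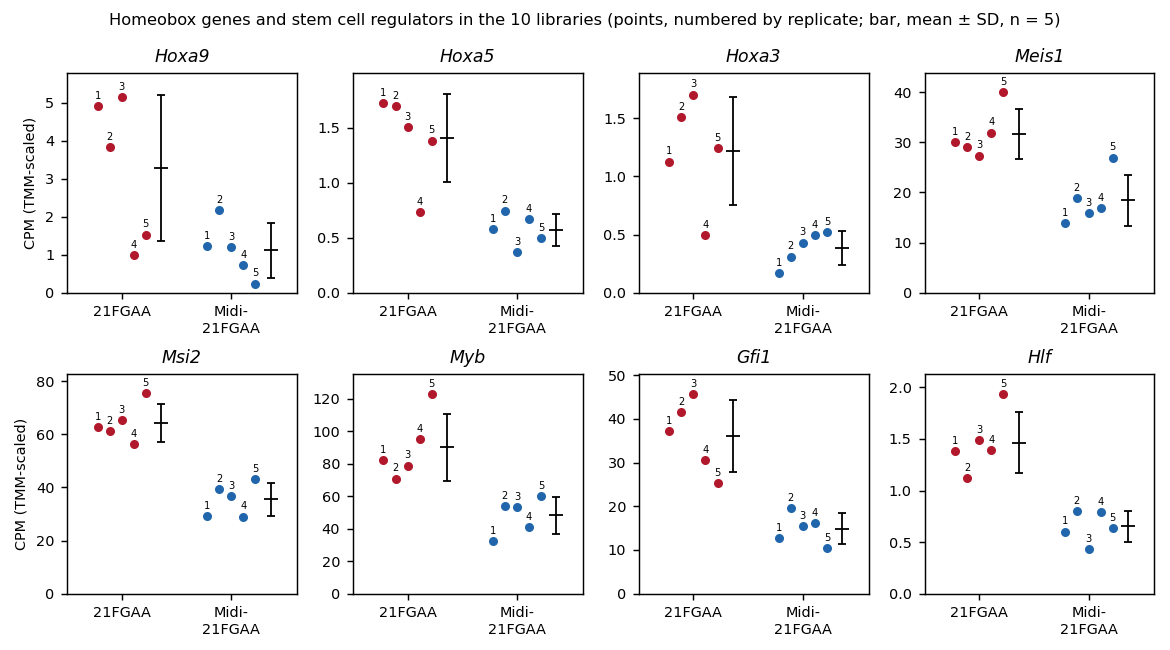
CPM of Hox genes, Meis1 and stem cell regulators, 1 point per library numbered by replicate, with the mean and SD of 5 libraries beside each group. The groups are separate for Meis1, Msi2, Myb, Gfi1 and Hlf and overlap for Hoxa9, Hoxa5 and Hoxa3.

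Of 14 tested surface markers of stem and progenitor cells, 2 rose, where 1.99% of all genes tested did, and 0 fell. The median log2 difference was 0.33, with 9 of the 14 positive and 1 that was not called lower without overlap. Their sum was 1971 to 2552 CPM with G-NHA9-21FGAA and 2436 to 2740 CPM with G-NHA9Midi-21FGAA. Emcn, the sialomucin endomucin, was at 0.999, 0.642, 0.567, 0.943 and 0.907 CPM in replicates 1 to 5 of G-NHA9-21FGAA and at 0.0962, 0.0910, 0.0587, 0.0986 and 0.242 in those of G-NHA9Midi-21FGAA. It was low in all libraries, yet the groups did not overlap (log2 2.69 ± 0.35, adjusted p = 1.36e-05), and it was at 0.0107 ± 0.0149 CPM with empty vector. Cd27, a receptor of the TNF receptor family, was at 0.191, 0.269, 0.313, 0.268 and 0.740 CPM against 0.0481, 0, 0.0196, 0.0394 and 0. No G-NHA9Midi-21FGAA library held more than 3 counts of Cd27, and the groups did not overlap (adjusted p = 1.69e-05). Cd34, the classic progenitor sialomucin, was at 206 ± 27.7 against 135 ± 39.6 CPM without overlap and missed the threshold (adjusted p = 0.0565), as did Slamf1, a marker of stem cells (26.1 ± 7.84 against 12.9 ± 4.40 CPM, adjusted p = 0.128), and Angpt1, which encodes angiopoietin 1 (47.6 ± 2.52 against 30.4 ± 6.88 CPM, adjusted p = 0.131). Under the replicate block these 3 were higher as well, at adjusted p of 0.0306, 0.0409 and 0.0386. This made 5 of the 14, where 3.52% of all genes tested were higher. Kit, the receptor for stem cell factor, was at 169.8 ± 48.1 against 216 ± 99 CPM (adjusted p = 0.591).

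Lists of metabolic genes held few changed genes. Of 23 tested genes of serine synthesis and the amino acid stress response 3 rose, where 1.99% of all genes tested did, and 0 fell. The median log2 difference was 0.41. With the replicate number as a block 5 rose, where 3.52% of all genes tested did. Psat1, an enzyme of serine synthesis, rose from 98.1 ± 11.2 to 141 ± 12.2 CPM (log2 0.53 ± 0.15, adjusted p = 0.0408), Shmt2, the mitochondrial enzyme that converts serine to glycine, from 39 ± 7.51 to 59.7 ± 10.0 CPM (log2 0.61 ± 0.17, adjusted p = 0.0471), and Vldlr, a lipoprotein receptor, from 7.61 ± 2.05 to 16.2 ± 3.40 CPM (log2 1.08 ± 0.23, adjusted p = 0.00716). The groups did not overlap for any of the 3, nor for Phgdh, which opens the serine pathway and missed the threshold (100.1 ± 9.96 against 68.4 ± 13.1 CPM, adjusted p = 0.0936). The calls for Psat1 and Shmt2 each held in 2 of the 10 fits that left out 1 library, that for Psat1 failing without G-NHA9-21FGAA replicates 1, 2, 3 and 5 or G-NHA9Midi-21FGAA replicates 1, 3, 4 and 5 and that for Shmt2 without G-NHA9-21FGAA replicates 1, 3, 4 and 5 or G-NHA9Midi-21FGAA replicates 1, 2, 3 and 4. Replicates 1 to 3 alone gave 6 genes of the list, where 1.91% of all genes tested were called.

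In glycolysis and hypoxia 2 of 24 genes rose and 0 fell (median log2 difference 0.061). Slc2a3, the glucose transporter GLUT3, was at 338, 403, 338, 352 and 397 CPM against 173, 259, 184, 179 and 318. Its groups did not overlap (log2 0.71 ± 0.15, adjusted p = 0.00485). Pfkm, the muscle form of phosphofructokinase, rose from 19.3 ± 3.45 to 25.7 ± 2.58 CPM (log2 0.41 ± 0.11, adjusted p = 0.0255), a call lost without G-NHA9-21FGAA replicates 2 and 5 or G-NHA9Midi-21FGAA replicates 1 and 4. Idi1, an isomerase of sterol synthesis, was the single gene called of 28 in its list (46.8 ± 7.46 to 67.4 ± 1.91 CPM, log2 0.53 ± 0.15, adjusted p = 0.0413), and Eda2r, a death receptor induced by p53, the single gene of 20 (2.68 ± 0.608 to 4.53 ± 0.623 CPM, log2 0.75 ± 0.20, adjusted p = 0.0354). A single gene of 28 or of 20 is near the 1.99% of all genes tested that rose. The Idi1 call was lost without G-NHA9-21FGAA replicates 1, 2, 3, 4 and 5 or G-NHA9Midi-21FGAA replicates 1, 3 and 4, and that for Eda2r without G-NHA9-21FGAA replicates 1, 2, 3 and 4 or G-NHA9Midi-21FGAA replicates 1, 3 and 4.

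Genes that fell with G-NHA9-21FGAA, and so were higher without the N-terminal stretch, changed less. Those in this and the next paragraph were named by a rule that required no overlap between the groups. Ddc, the decarboxylase that forms dopamine and serotonin, was at 4.02, 4.26, 5.16, 7.14 and 6.32 CPM in replicates 1 to 5 of G-NHA9-21FGAA and at 7.99, 9.44, 13.7, 16.2 and 17 in those of G-NHA9Midi-21FGAA. The groups did not overlap, and Ddc was 2.39-fold lower with the N-terminal FG motifs (log2 -1.26 ± 0.23, adjusted p = 0.00122). Id3, an inhibitor of basic helix-loop-helix factors, was at 3.77 ± 1.22 against 7.88 ± 1.69 CPM (log2 -1.06 ± 0.22, adjusted p = 0.00555), and Ptgfrn, a membrane protein that associates with tetraspanins, at 7.31 ± 1.57 against 14.5 ± 1.76 CPM (log2 -0.99 ± 0.18, adjusted p = 0.00153). Slc39a2, a zinc importer, was at 58.5, 72.2, 57, 79.4 and 52.8 CPM against 138, 108, 117, 144 and 107. All 5 libraries with the N-terminal stretch were below the others (log2 -0.94 ± 0.17, adjusted p = 0.00107), and the gene overlaps Mettl17 on the same strand. These 4 calls were kept whichever single library was left out.

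Mfge8, the secreted bridge by which macrophages take up dying cells, was at 188, 352, 229, 320.5 and 259 CPM against 492, 397, 447, 655 and 463. The groups did not overlap (log2 -0.86 ± 0.19, adjusted p = 0.0103). Sulf2, an extracellular sulfatase, fell from 80.5 ± 25.1 to 44.2 ± 4.53 CPM (log2 -0.87 ± 0.21, adjusted p = 0.0178), and Ids, a lysosomal sulfatase, from 27 ± 9.96 to 15.2 ± 3.52 CPM (log2 -0.83 ± 0.19, adjusted p = 0.0108). Lower levels without overlap were also found for Clmp, an adhesion molecule (7.43 ± 2.12 against 13 ± 2.53 CPM, adjusted p = 0.0253), and for Lipn, a lipase (5.93 ± 1.59 against 13.6 ± 2.63 CPM, adjusted p = 0.0367). The tight junction protein gene Cldn1 (5.93 ± 0.273 against 10.6 ± 3.02 CPM, adjusted p = 0.0374) and Pdgfc, a growth factor (5.35 ± 0.750 against 9.22 ± 2.40 CPM, adjusted p = 0.0380), behaved likewise. Several of these calls turned on 1 library. Those for Mfge8 and Ids were lost without G-NHA9Midi-21FGAA replicate 4, that for Sulf2 without G-NHA9Midi-21FGAA replicates 1 and 4, that for Clmp without G-NHA9-21FGAA replicates 1 and 3 or G-NHA9Midi-21FGAA replicate 5, that for Lipn without G-NHA9-21FGAA replicates 1, 2, 3 and 5 or G-NHA9Midi-21FGAA replicates 1, 3 and 4, that for Pdgfc without G-NHA9-21FGAA replicates 1, 2, 3 and 5 or G-NHA9Midi-21FGAA replicates 1, 3 and 4 and that for Cldn1 without G-NHA9-21FGAA replicates 1, 2, 3, 4 and 5 or G-NHA9Midi-21FGAA replicates 1 and 4.

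Lineage markers were examined next, as a check on the cells present. Markers of monocytes and macrophages were present in all libraries, with Lyz2, lysozyme, at 12901 ± 2126 against 19423 ± 1775 CPM (adjusted p = 0.192) and Csf1r, the receptor for M-CSF, at 199.5 ± 37.5 against 267 ± 55.7 CPM (adjusted p = 0.175). Of the 24 tested, 1 rose and 0 fell, with a median log2 difference of -0.27. A single gene of 24 is near the 1.99% of all genes tested that rose. The one that rose was F13a1, coagulation factor XIII A, high in classical monocytes, at 454, 449.8, 432, 258 and 233 CPM against 234, 245, 180.3, 148 and 159. Replicate 5 of G-NHA9-21FGAA lay below replicates 1 and 2 of G-NHA9Midi-21FGAA, and the groups were otherwise apart (log2 0.92 ± 0.18, adjusted p = 0.00291). Under the block 2 rose and 2 fell, where 3.52% of all genes tested rose and 2.49% fell. The block added Ly6c2 (adjusted p = 0.0349) among those higher and Mertk (adjusted p = 0.0306) and Msr1 (adjusted p = 0.0445) among those lower.

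Antigen presentation genes leaned the other way. Of 17 tested genes of dendritic cells and MHC class II, 2 fell and 1 rose, where 1.03% of all genes tested fell and 1.99% rose. The median log2 difference was -0.40. The list summed to 889.5 to 1623 CPM with G-NHA9-21FGAA and 1489 to 2077 CPM with G-NHA9Midi-21FGAA. The MHC class II alpha chain gene H2-Aa fell from 298 ± 50.4 to 193 ± 44.4 CPM (log2 -0.63 ± 0.15, adjusted p = 0.0196), and Cd74, the invariant chain, from 569.6 ± 92.3 to 389.6 ± 83.2 CPM (log2 -0.55 ± 0.16, adjusted p = 0.0498), with overlap in both. Flt3, the cytokine receptor of dendritic cell precursors, was low and rose from 0.113 ± 0.0788 to 0.284 ± 0.0439 CPM (log2 1.33 ± 0.35, adjusted p = 0.0316). The H2-Aa call was lost without G-NHA9-21FGAA replicates 4 and 5 or G-NHA9Midi-21FGAA replicates 3 and 4, and that for Cd74 without G-NHA9-21FGAA replicates 1, 3, 4 and 5 or G-NHA9Midi-21FGAA replicates 1, 3 and 4 and with RLE size factors (adjusted p = 0.0505) or library sizes alone (adjusted p = 0.0511), and that for Flt3 without G-NHA9-21FGAA replicates 1, 2, 3 and 5 or G-NHA9Midi-21FGAA replicates 1, 3 and 5. Under the block 4 fell, among them H2-Ab1 (adjusted p = 0.0284) and H2-Eb1 (adjusted p = 0.0431), where 2.49% of all genes tested fell.

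In the late neutrophil list 1 of 18 genes fell and 0 rose (median log2 difference 0.22). It was Fpr1, the receptor for formyl peptides, at 18.7 ± 4.58 against 35.8 ± 10.2 CPM (log2 -0.94 ± 0.26, adjusted p = 0.0396). Of 20 mast cell and basophil genes 1 fell, Tpsab1, a mast cell tryptase (4.45 ± 2.89 against 12.2 ± 5.19 CPM, log2 -1.45 ± 0.39, adjusted p = 0.0350), and of 29 erythroid genes 1 rose, Nfe2, a transcription factor shared with megakaryocytes (135 ± 12.9 against 97.9 ± 16.2 CPM, log2 0.46 ± 0.11, adjusted p = 0.0148). Over all genes tested 1.99% rose and 1.03% fell, so that 1 gene in lists of 18 to 29 is near this background. The calls failed without G-NHA9-21FGAA replicates 1, 3, 4 and 5 or G-NHA9Midi-21FGAA replicates 1, 3 and 4 for Fpr1, without G-NHA9-21FGAA replicates 1, 2 and 3 or G-NHA9Midi-21FGAA replicates 3, 4 and 5 for Tpsab1 and without G-NHA9Midi-21FGAA replicates 1 and 4 for Nfe2. The erythroid list had a median log2 difference of -0.21 and summed to 1110.4 to 2943 CPM against 1129 to 2761 CPM. All 16 megakaryocyte and platelet genes had a positive difference, with a median of 0.57 on the log2 scale, but edgeR and DESeq2 called 0, with 4 past an unadjusted p of 0.05. At that unadjusted threshold 1312 of all 17166 genes tested were higher. Lymphoid markers were largely absent, since 9 of 24 passed the filter and Cd3e, which defines T cells, did not. Of those 9, Lck, a kinase of T cells, rose from 1.21 ± 0.321 to 2.43 ± 0.713 CPM (log2 1.00 ± 0.20, adjusted p = 0.00312).

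The edgeR test called 0 of the 79 cytosolic ribosomal protein genes and DESeq2 0, with 29 higher at an unadjusted p of 0.05, 78 with a positive difference and a median of 0.23 on the log2 scale. At that unadjusted threshold 1312 of all 17166 genes tested were higher and 1275 lower. Of 25 interferon-induced genes both tools called 0, with 1 lower at an unadjusted p of 0.05, and all had a negative difference with a median of -0.33. The lists of heme synthesis (15 genes), DNA replication (40), mitosis (30), ribosome assembly (39), oxidative phosphorylation (33), eosinophils (10), CC chemokines (13), immediate early and heat shock genes (14), G1 cyclins and CDK inhibitors (17), cytokine receptors and STAT5 targets (19) and stromal and endothelial cells (8) also had 0 genes called by edgeR, with 0 to 6 genes of a list past an unadjusted p of 0.05 and at most 1 called by DESeq2.

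**Figure D4:**
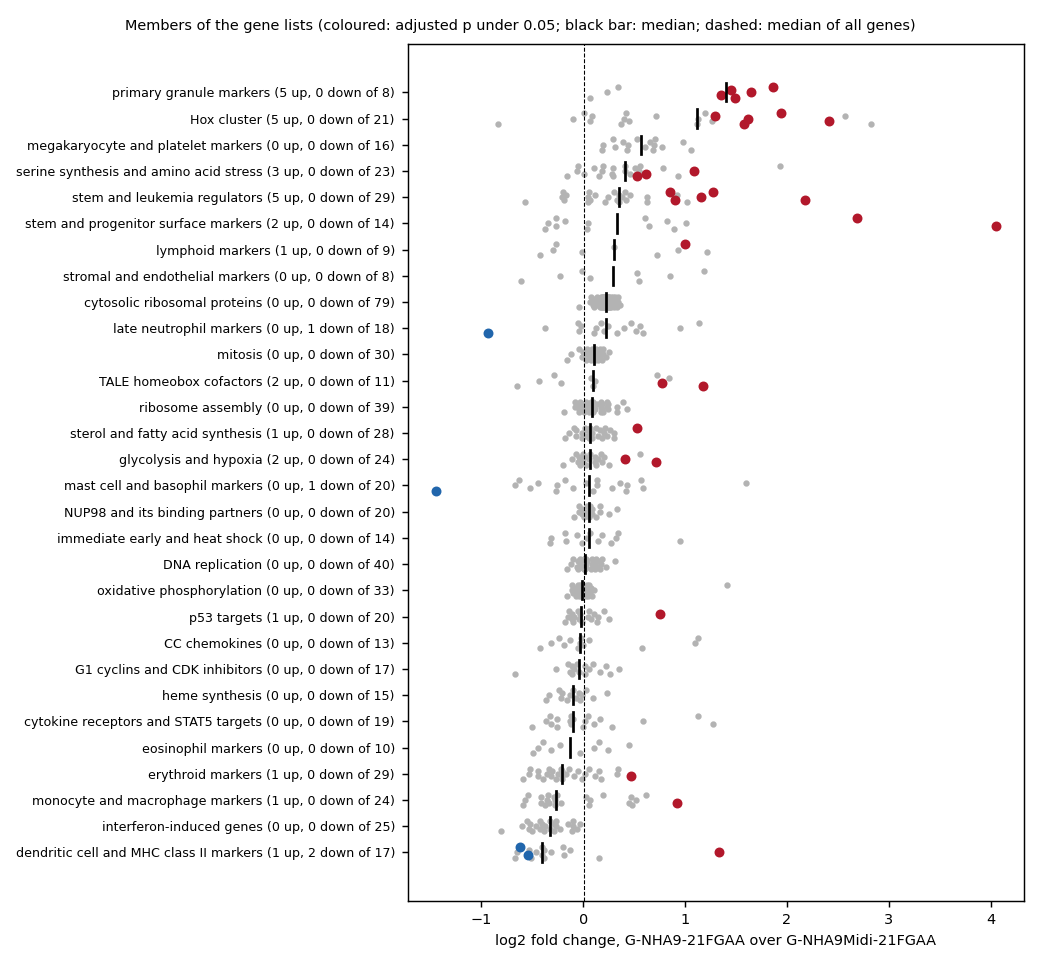
Log2 fold change of G-NHA9-21FGAA over G-NHA9Midi-21FGAA for each tested gene of 30 lists, 1 row per list, with changed genes coloured and the median of the list as a black bar. The primary granule and Hox lists have the highest medians (1.40 and 1.12), and the dendritic cell and MHC class II list the lowest (-0.40).

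The mouse Nup98 gene and the genes of factors that NUP98 is known to contact were examined in a list of 20 genes. The edgeR test called 0 of them and DESeq2 0, with 2 past an unadjusted p of 0.05 and a median log2 difference of 0.055. Over all 17166 genes tested 2587 were past that unadjusted threshold. Rae1, whose protein binds the GLEBS domain present in G-NHA9-21FGAA alone of the 2 constructs, was at 43.9 ± 4.81 against 39 ± 0.627 CPM (log2 0.17 ± 0.071, adjusted p = 0.225). The acetyltransferase genes Crebbp (64.4 ± 26 against 66.3 ± 27.4 CPM, log2 -0.042 ± 0.37) and Ep300 (116 ± 39.8 against 115 ± 41.5 CPM, log2 0.0078 ± 0.36) had adjusted p of 0.986 and 0.998. Nup98 itself was the 1 gene of the list called under the replicate block.

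The same N-terminal stretch separates G-NHA9 from G-NHA9Midi, in which the 21 C-terminal FG motifs are intact, and the libraries of this second pair were distinct from those of the first. There 3378 genes (19.7%) differed, 1919 (11.2%) higher and 1459 (8.50%) lower in cells with the stretch. The difference between the differences of the 2 pairs was tested in the same fit. It was past the threshold in 2167 genes (12.6%), 892 of them with a larger value in the mutated pair (5.20%) and 1275 with a smaller one (7.43%), against 1637 (9.54%) and 1788 (10.4%) with the block. Of the 341 genes that rose with the stretch in the mutated pair, 112 also rose, 43 fell and 186 were not called in the intact pair. Of the 176 that fell, 63 rose, 12 fell and 101 were not called. By list, 22 of the 29 erythroid genes, 8 of the 21 Hox genes, 13 of the 25 interferon-induced genes and 8 of the 17 dendritic cell and MHC class II genes had a smaller value in the mutated pair and 0 in each a larger one. In contrast, 49 of the 79 ribosomal protein genes and 9 of the 23 serine and amino acid stress genes had a larger value and 0 a smaller one. Across all genes tested the log2 differences of the 2 pairs had a Pearson correlation of 0.0066, a description across genes that are not independent replicates.

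**Figure D5:**
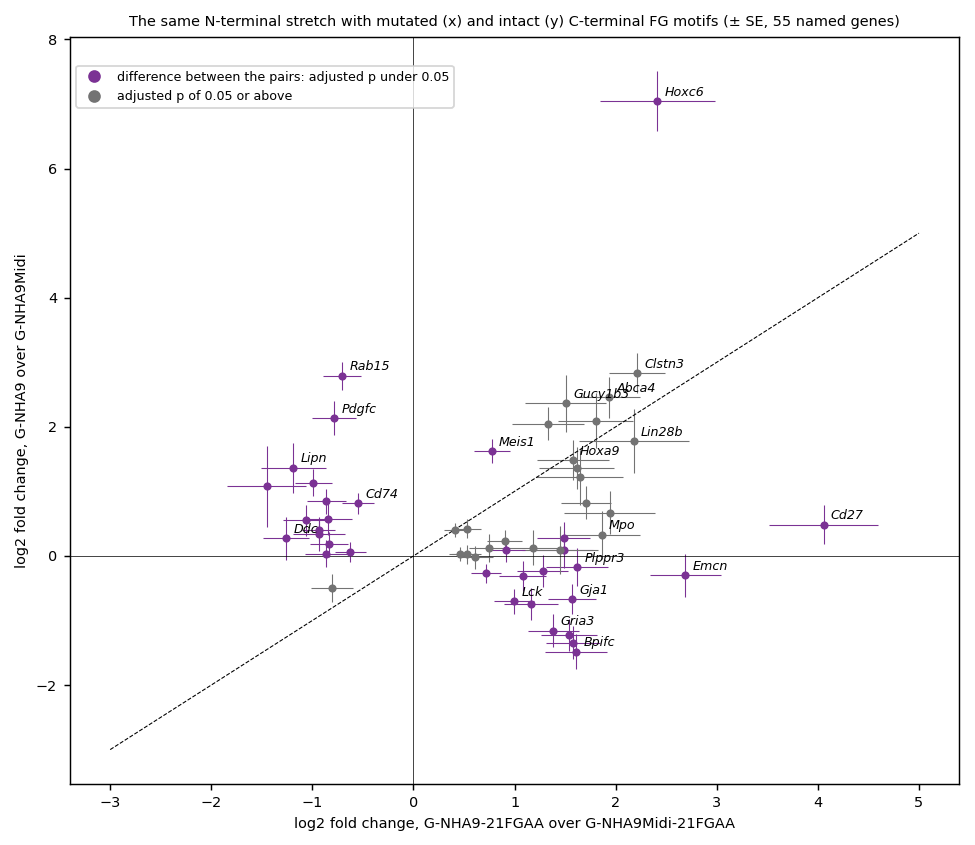
Log2 fold change for the N-terminal stretch in the mutated pair (horizontal) and in the intact pair (vertical) for 55 changed genes named by rule, with SE bars and a dashed line of equal change. Purple genes, such as Rab15 and Bpifc, differ between the pairs at an adjusted p under 0.05, and Hoxa9 lies near the line.

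The 4 genes furthest apart in the positive direction, among those that averaged 5 CPM or more over the 20 libraries of both pairs and did not overlap in the mutated pair, rose in the mutated and fell in the intact pair. Bpifc, of the family of bactericidal/permeability-increasing proteins, was at 2.27 ± 0.799 CPM with and 0.727 ± 0.290 without the stretch in the mutated pair (log2 1.61 ± 0.31, adjusted p = 0.00248). In the intact pair it was at 14.7 ± 2.93 against 41 ± 7.17 CPM (log2 -1.48 ± 0.27, adjusted p = 0.000129), so that the pairs differed by 3.09 ± 0.41 log2 units (adjusted p = 3.30e-06). The same turn was seen in Myl10, a myosin light chain gene, at 26.8 ± 7.05 against 8.98 ± 1.99 CPM in the mutated and 128 ± 32.7 against 325 ± 90.4 CPM in the intact pair (log2 1.58 ± 0.27 and -1.34 ± 0.26, the latter at adjusted p = 0.000307, with a difference of 2.92 ± 0.37, adjusted p = 2.10e-06). Mefv, the inflammasome protein pyrin, had differences of 1.54 ± 0.28 and -1.23 ± 0.24 log2 units (adjusted p = 0.00119 and 0.000345, and 3.35e-06 for the difference). Gria3, a glutamate receptor subunit, had 1.38 ± 0.25 and -1.16 ± 0.25 (adjusted p = 0.00154 and 0.00101, and 7.39e-06 for the difference).

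By the same limits, the genes named in the negative direction had a smaller value in the mutated than in the intact pair. Rab15, a GTPase of endosome recycling, fell with the stretch in the mutated pair and rose with it in the intact pair, with log2 differences of -0.71 ± 0.19 and 2.79 ± 0.22 (adjusted p = 3.54e-11 in the intact pair and 4.63e-10 for the difference), and its call in the mutated pair (adjusted p = 0.0345) was lost without G-NHA9-21FGAA replicates 1, 3 and 5 or G-NHA9Midi-21FGAA replicates 1, 3, 4 and 5. Pgap1, which processes GPI anchors, had differences of -0.77 ± 0.26 and 1.95 ± 0.27 (adjusted p of the difference = 5.07e-06) and was not called in the mutated pair (adjusted p = 0.0990). Hoxc6 rose in both pairs, by 2.41 ± 0.57 log2 units in the mutated and 7.05 ± 0.47 in the intact pair (19.6 ± 5.34 against 0.144 ± 0.0857 CPM, adjusted p = 1.14e-12), a difference of -4.63 ± 0.88 (adjusted p = 0.000410) that was lost with replicates 1 to 3 alone (adjusted p = 0.0718).

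For Hoxa9 the log2 differences of the pairs were 1.57 ± 0.36 in the mutated pair and 1.48 ± 0.31 in the intact pair, where it was at 96.6 ± 14.4 against 34.6 ± 7.18 CPM. The difference between them was 0.092 ± 0.46 log2 units (adjusted p = 0.929), so that none was detected, within this error. Meis1 differed by 0.78 ± 0.18 in the mutated and 1.63 ± 0.18 in the intact pair (difference -0.85 ± 0.25, adjusted p = 0.0196). For Mpo the values were 1.86 ± 0.38 and 0.33 ± 0.37 (difference 1.53 ± 0.53, adjusted p = 0.0511), and for Ctsg 1.49 ± 0.29 and 0.10 ± 0.28 (difference 1.39 ± 0.40, adjusted p = 0.0182). Gfi1 was at 64.6 ± 10.5 against 76 ± 21.6 CPM in the intact pair (log2 -0.23 ± 0.25), unlike its rise of 1.28 ± 0.25 in the mutated pair (difference 1.51 ± 0.35, adjusted p = 0.00347).

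The levels with empty vector were set beside both constructs, with the caution that the 3 conditions' contrasts share libraries. Against empty vector 4660 genes (27.1%) differed with G-NHA9-21FGAA and 2903 (16.9%) with G-NHA9Midi-21FGAA. Of the 341 genes that were higher with G-NHA9-21FGAA, 203 (59.5%) were above empty vector with G-NHA9-21FGAA and not called with G-NHA9Midi-21FGAA, 57 (16.7%) were above it with both, 42 (12.3%) were below it with G-NHA9Midi-21FGAA and not called with G-NHA9-21FGAA, and 33 (9.68%) were called with neither. Of the 176 that were lower, 96 (54.5%) were below empty vector with G-NHA9-21FGAA and not called with G-NHA9Midi-21FGAA, 38 (21.6%) were above it with G-NHA9Midi-21FGAA and not called with G-NHA9-21FGAA, and 39 (22.2%) were called with neither.

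Mpo, Ctsg, Hoxa9 and Msi2 were above empty vector with G-NHA9-21FGAA and did not pass the test with G-NHA9Midi-21FGAA. Mpo was at 138 ± 86.2 CPM with empty vector, and the log2 differences from it were 1.43 ± 0.38 with G-NHA9-21FGAA (adjusted p = 0.00491) and -0.43 ± 0.37 with G-NHA9Midi-21FGAA (adjusted p = 0.470). Ctsg was at 73.7 ± 29.3 CPM, with differences of 1.63 ± 0.29 (adjusted p = 0.000122) and 0.14 ± 0.28 (adjusted p = 0.792). For Hoxa9 the differences were 1.74 ± 0.37 (adjusted p = 0.000766) and 0.16 ± 0.39 (adjusted p = 0.823), and for Msi2, at 31.2 ± 5.46 CPM with empty vector, 1.04 ± 0.13 (adjusted p = 6.53e-07) and 0.19 ± 0.12 (adjusted p = 0.327). Myb and Lifr were above empty vector with both constructs, Myb by 1.54 ± 0.17 and 0.64 ± 0.17 (adjusted p = 2.08e-07 and 0.00952) from 30.9 ± 7.78 CPM, and Lifr by 2.76 ± 0.26 and 1.05 ± 0.25 (adjusted p = 1.19e-08 and 0.00475) from 5.09 ± 0.567 CPM. Among the lower genes, Ddc was at 4.31 ± 0.934 CPM with empty vector, not called against G-NHA9-21FGAA (log2 0.32 ± 0.23, adjusted p = 0.323) and below that with G-NHA9Midi-21FGAA (log2 1.57 ± 0.23, adjusted p = 0.000128).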

How the data were processed

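Stranded total RNA libraries (paired-end, 100 cycles per the labels) were sequenced by the authors, who deposited whole-number counts of reads for 49671 genes, without normalization. Their processing notes name STAR 2.7.0d, HTSeq 0.11.2, DESeq2 and mm10. The strand setting and annotation of the counting are not given in the sources used here. No column of another series was present. Positions and overlaps were taken from GENCODE M21 (GRCm38), which held 88.3% of the identifiers in the same version and 99.5% in any version.

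The filterByExpr function of edgeR 4.0.16 (R 4.3.3, limma 3.58.1), given the 7 conditions, left 17166 genes with 99.96% of all counts. After TMM scaling, 1 mean per condition was fitted to all 35 libraries, and contrasts were tested with the quasi-likelihood test with Benjamini-Hochberg adjustment over all genes tested, at a threshold of 0.05. All adjusted p-values are from this test unless DESeq2 is named. The difference between the pairs is the interaction contrast of the same fit. Total counts ranged from 37911026 to 75810659. A count of 0 allows up to 3 counts, and this limit covers counting error only. For principal components, log2 CPM were taken with 2 as prior count.

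The comparison, its members and the gene lists were chosen with earlier results of these data known. Genes were named by these rules: the 12 largest rises and 12 largest falls among changed genes that averaged 5 CPM or more without overlap between the groups (106 and 81 were eligible), leaving out predicted, clone-named, sex-linked and mitochondrial genes; up to 4 changed genes of each of the 31 lists; Hoxa9, Nup98, Rae1, Crebbp and Ep300; and the 4 genes furthest apart between the pairs in each direction, under the same limits but with the 5 CPM taken over the 20 libraries of both pairs and the adjusted p that of the interaction. A gene that these rules name is not reported here. Others were chosen after their values were seen, where stated, or as members of a list that did not pass. The list of sex-linked transcripts had 0 of 5 genes called. The sum of Y-linked transcripts and Xist were above the limit in all 10 libraries, with overlapping ranges in both groups.

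Libraries of a condition carry the numbers 1 to 5 in the labels. Deviations from the group means correlated at 0.143 to 0.560 between libraries of the same number, all above 0.1, with a mean of 0.370. The number was therefore taken to pair the libraries. The mean for other numbers, -0.0905, is no separate measure, since deviations from a group mean cancel within the group. Some libraries of other numbers correlated more. G-NHA9-21FGAA replicate 4 was at 0.438 with G-NHA9Midi-21FGAA replicate 5 and 0.143 with replicate 4. G-NHA9-21FGAA replicate 2 was at 0.328 with G-NHA9Midi-21FGAA replicate 3 and 0.272 with replicate 2. What it stands for is not in the labels. The fit without it, set first, was kept as the main one.

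Alternatives were RLE size factors, library sizes without TMM, no filter, a mean of at least 1 CPM, DESeq2 1.42.0, the replicate number as a block, a fit to the 10 libraries, a covariate of sex-linked transcripts, a minimum absolute log2 fold change of 1 and each library left out in turn. Replicates 1 to 3 alone were added after seeing the data. On simulated counts for this comparison (16823 genes, 100 changed by 2 and 100 by 4), edgeR recovered 83% and 97% and called 10 unchanged genes. The changed genes there had a mean of at least 1 CPM, and libraries were drawn independently, without an effect of the replicate number. These rates therefore do not cover genes below that level or libraries that deviate together. Python 3.11.15, numpy 2.4.6 and matplotlib 3.10.9 were used for the figures.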

Additional observations from a re-analysis of the deposited data

Results flagged for a closer look

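The difference between cells with and without the N-terminal stretch was not the same in the mutated and the intact pair for 42 of the 68 changed genes named here, by the interaction test with adjusted p under 0.05. Of all 517 changed genes 287 (55.5%) passed this test, and of all genes tested 12.6% did. Some of the named genes were chosen by this same test, so the 42 do not stand for the changed genes as a whole. The log2 value in the mutated pair minus that in the intact pair was positive for Trhr (8.10), Olfm3 (4.52), Cd27 (3.57), Hnf4a (3.14), Bpifc (3.09), Emcn (2.99), Myl10 (2.92), Mefv (2.76), Gria3 (2.54), Gja1 (2.24), Ms4a3 (1.90), Hlf (1.90), Plppr3 (1.79), Lck (1.70), Gfi1 (1.51), Ctsg (1.39), Vldlr (1.39), Serpine2 (1.22), Slc2a3 (0.98), F13a1 (0.83) and Msi2 (0.69). It was negative for Hoxc6 (-4.63), Rab15 (-3.50), Pdgfc (-2.91), Lipn (-2.55), Tpsab1 (-2.53), Ptgfrn (-2.13), Mfge8 (-1.71), Id3 (-1.61), Ddc (-1.53), Cldn1 (-1.41), Cd74 (-1.36), Slc39a2 (-1.34), Fpr1 (-1.27), Ids (-1.02), Sulf2 (-0.90), Meis1 (-0.85), Dnmt3a (-0.75), Gusb (-0.68), H2-Aa (-0.68), Man2b1 (-0.49) and Fuca1 (-0.42). Of these, Ms4a3, Msi2, Hnf4a, Trhr, Olfm3, Dnmt3a, Gusb, Man2b1 and Fuca1 were chosen after their values were seen.

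A single library stood far from the other 4 of its group, by Dixon's criterion, in 6 of 145 groups (4.14%), where chance gives about 1 in 20. Ids was at 44.2 CPM in G-NHA9Midi-21FGAA replicate 4, with the others at 20.6 to 27.4, and its call was lost without that library. Hoxa2 was at 0.638 CPM in G-NHA9-21FGAA replicate 1 (others 0.197 to 0.274), Cd27 at 0.740 CPM in G-NHA9-21FGAA replicate 5 (others 0.191 to 0.313) and Emcn at 0.242 CPM in G-NHA9Midi-21FGAA replicate 5 (others 0.0587 to 0.0986). Dnmt3b was at 10.2 CPM in G-NHA9-21FGAA replicate 5 (others 5.14 to 6.40), and Man2b1 at 457 CPM in G-NHA9-21FGAA replicate 2 (others 367 to 393).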

How the results depend on the processing

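The direction of every changed gene named here was kept in all the alternatives that gave it a value. The number of changed genes was 517 in the edgeR fit and 776 with DESeq2, 1033 with the replicate number as a block, 885 with the covariate of sex-linked transcripts, 236 in a fit to the 10 libraries, 328 with replicates 1 to 3 and 218 with a minimum absolute log2 fold change of 1. The number of higher genes was 605 with the replicate block, 151 in the fit to the 10 libraries and 196 with the minimum fold change, against 341. The number of lower genes, 176, was 97 without a filter, 297 with DESeq2, 428 with the replicate block, 85 in the fit to the 10 libraries, 390 with the covariate, 84 with replicates 1 to 3 and 22 with the minimum fold change. With 1 library left out there were 210 to 701 changed genes, 172 to 441 higher and 38 to 260 lower, and the number of lower genes was 38 without G-NHA9Midi-21FGAA replicate 4. Genes that differed between the pairs, 2167, were 3425 with the replicate block, 1248 with the minimum fold change and 1767 to 2273 with 1 library left out. The number of Hox genes called, 5, was 2 in the fit to the 10 libraries and 4 to 7 with 1 library left out. The fit to the 10 libraries and that with replicates 1 to 3 hold fewer samples and so fewer degrees of freedom. What changed the counts was not tested for any setting. Crebbp and Ep300, which were not called, changed sign. Crebbp, at -0.042 on the log2 scale, was at 0.016 without TMM, 0.14 with replicates 1 to 3 and -0.28 to 0.14 with 1 library left out, and Ep300, at 0.0078, was at -0.18 with the covariate and -0.16 to 0.15 with 1 library left out. Of the 68 named changed genes, 62 passed without TMM, 67 with RLE size factors, 56 without a filter, 68 with DESeq2 and with the replicate block, 41 in the fit to the 10 libraries, 40 with replicates 1 to 3 and 39 to 67 with 1 library left out. Beside the calls printed with the results, the replicate block changed no call of a named gene. Among the Hox genes tested, 4 held at most 3 counts in each of the 10 libraries.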

Other observations

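Some changed genes outside the lists were examined after their values were seen. Trhr, the receptor for thyrotropin-releasing hormone, held 0 counts in all 5 G-NHA9Midi-21FGAA libraries and 0.404, 0.228, 0.665, 0.436 and 0.262 CPM in replicates 1 to 5 of G-NHA9-21FGAA, at least 7.06-fold higher against a floor of 3 counts per library (adjusted p = 3.58e-06). Olfm3, a secreted olfactomedin, was at 0.914, 0.766, 0.665, 1.13 and 1.38 CPM against 0.0241, 0.0182, 0.0196, 0 and 0.0382, without overlap (adjusted p = 3.59e-06). Hnf4a, a nuclear receptor known from liver, was at 1.47, 1.66, 0.822, 1.34 and 2.91 CPM against 0.0241, 0.109, 0.0978, 0.0394 and 0.153, also without overlap (adjusted p = 6.04e-07), and at 0.0572 ± 0.0388 CPM with empty vector, 4.19 ± 1.42 with G-NHA9 and 2.10 ± 0.894 with G-NHA9Midi.

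The 2 de novo DNA methyltransferase genes went opposite ways. Dnmt3b rose from 4.16 ± 0.161 to 6.72 ± 2.02 CPM (log2 0.69 ± 0.14, adjusted p = 0.00454) and Dnmt3a fell from 130.4 ± 16.9 to 99.8 ± 5.65 CPM (log2 -0.39 ± 0.10, adjusted p = 0.0246), each without overlap. The Dnmt3a call was lost without G-NHA9-21FGAA replicates 1, 3, 4 and 5 or G-NHA9Midi-21FGAA replicate 4, and the gene overlaps an antisense transcript.

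Further genes that fell were picked one by one after their values were seen and do not stand for a list. Tlr2, a sensor of bacterial lipoproteins, was at 252 ± 38.6 against 374 ± 72.5 CPM (log2 -0.57 ± 0.14, adjusted p = 0.0211), and Sirpa, the receptor for CD47, at 773 ± 120.3 against 1038 ± 154 CPM (log2 -0.42 ± 0.12, adjusted p = 0.0449), with overlap in both. The lysosomal hydrolase genes Man2b1 (log2 -0.36 ± 0.10, adjusted p = 0.0326), Fuca1 (log2 -0.40 ± 0.10, adjusted p = 0.0211) and Gusb (log2 -0.35 ± 0.10, adjusted p = 0.0384) fell as well, with overlap in Fuca1 and Gusb. All 5 calls depended on single libraries. That for Tlr2 was lost without G-NHA9-21FGAA replicates 3 and 5 or G-NHA9Midi-21FGAA replicates 1 and 4 (adjusted p up to 0.102), that for Sirpa without G-NHA9-21FGAA replicates 1, 3, 4 and 5 or G-NHA9Midi-21FGAA replicates 1, 3 and 4 (up to 0.165), that for Man2b1 without G-NHA9-21FGAA replicates 1, 3, 4 and 5 or G-NHA9Midi-21FGAA replicates 1, 3 and 4 (up to 0.104), that for Fuca1 without G-NHA9-21FGAA replicates 1, 3 and 5 or G-NHA9Midi-21FGAA replicates 1, 3 and 4 (up to 0.0718) and that for Gusb without G-NHA9-21FGAA replicates 1 and 3 or G-NHA9Midi-21FGAA replicates 1, 3, 4 and 5 (up to 0.154). Without a filter on low counts the calls for Sirpa, Man2b1, Fuca1, Gusb and Dnmt3a were lost, with adjusted p between 0.0624 and 0.144. Of the 24 monocyte and macrophage markers tested, given above, 0 fell by the edgeR test and 0 were lower by DESeq2. At an unadjusted p of 0.05 by edgeR 7 were lower, where 1275 of all 17166 genes tested were. Their sum, most of which was Lyz2, was lower in the same libraries. The part of these cells in these differences was not tested.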
